A study of Homo sapiens with 11 samples.

Results

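The chemokines CXCL8 (interleukin 8), CXCL1, CXCL2, CXCL3, CXCL5, CCL2 and CCL20 and the cytokines IL6, LIF and IL1A, 10 of the 25590 genes in the tables, were followed in PC-3 xenograft tumours. The genes were taken from a list of signals that tumour cells send to leukocytes and neighbouring cells, and all 10 were found by symbol. PC-3 cells, an established line from a human prostate carcinoma, were mixed with matrigel and grown under the skin of male athymic nude mice (Crl:NU-Foxn1nu), which were 8 weeks old and have no functional T cells. Of the tumours, 6 came from mice that had received repeated intraperitoneal injections of A2M*, the activated form of the proteinase inhibitor alpha-2-macroglobulin, at 5.6 mg for each 20 g of body weight, and 5 came from control mice given PBS. RNA was sequenced from 1 library per tumour, tumours are called by their names in the labels, and the values below cover the reads that were assigned to the human genome. How many reads of mouse cells were assigned to it was not measured here. The labels do not say that every tumour came from a mouse of its own, so the p-values measure the spread between these tumours.

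Chemokines are small secreted proteins that direct leukocytes along a gradient. CXCL1, CXCL2, CXCL3, CXCL5 and CXCL8 share the receptor CXCR2 and attract neutrophils, CCL2 attracts monocytes through CCR2, and CCL20 attracts CCR6-bearing lymphocytes and dendritic cells. IL6 and LIF are related cytokines that signal through the shared receptor chain IL6ST and the transcription factor STAT3, while IL1A is an alarm signal of damaged epithelium that acts through IL1R1 and NF-kappaB, a transcription factor for which several of these genes are textbook targets.

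The CXCR2-binding chemokines lie together on chromosome 4. In the GENCODE annotation on GRCh37, CXCL8 spans chr4:74606236-74609433 and CXCL1 chr4:74735110-74737025 on the plus strand. CXCL5 (chr4:74861359-74864394), CXCL3 (chr4:74902306-74904524) and CXCL2 (chr4:74962757-74964913) follow on the minus strand. CCL2 is on chr17:32582293-32584227, CCL20 on chr2:228670455-228682280, IL1A on chr2:113531502-113542070, IL6 on chr7:22765503-22771621 and LIF on chr22:30636442-30642748. All are protein-coding. Exons of CXCL5, IL6 and LIF overlap exons of genes on the other strand (ENSG00000287037 for CXCL5, IL6-AS1 and STEAP1B for IL6, LIF-AS1 and LIF-AS2 for LIF), and the strand setting of the counting is not given in the sources used here, so reads of these partners cannot be told apart from those of the 3 genes.

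The promoters of 8 of the 10 genes were matched in RefSeq sequences of GRCh38.p14, and 7 of them held a kappaB-type motif. The 120 bases before the transcript start are shown for these 7 genes, 5' to 3' on the strand of the gene, since they let the shared element be read beside the expression of the family. Capitals mark every match to GGNNTTTCC on either strand.
CXCL8: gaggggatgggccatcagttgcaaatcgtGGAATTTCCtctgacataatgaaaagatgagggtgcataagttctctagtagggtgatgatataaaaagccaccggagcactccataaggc
CXCL1: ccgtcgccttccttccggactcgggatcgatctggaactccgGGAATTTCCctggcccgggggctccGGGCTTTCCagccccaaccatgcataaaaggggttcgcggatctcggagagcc
CXCL2: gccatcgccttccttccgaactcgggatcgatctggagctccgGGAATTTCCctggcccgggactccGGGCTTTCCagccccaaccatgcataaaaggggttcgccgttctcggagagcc
CXCL3: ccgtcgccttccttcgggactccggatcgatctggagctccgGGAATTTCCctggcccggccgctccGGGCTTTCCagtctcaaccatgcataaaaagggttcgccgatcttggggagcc
CXCL5: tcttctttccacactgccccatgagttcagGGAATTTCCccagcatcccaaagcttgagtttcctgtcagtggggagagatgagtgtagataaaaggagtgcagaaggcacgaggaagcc
CCL20: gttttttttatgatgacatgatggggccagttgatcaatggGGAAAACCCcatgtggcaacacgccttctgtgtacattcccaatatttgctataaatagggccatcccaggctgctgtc
IL6: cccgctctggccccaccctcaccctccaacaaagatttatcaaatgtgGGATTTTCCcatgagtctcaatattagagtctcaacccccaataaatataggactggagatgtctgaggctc

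The windows are chr4:73740449-73740568 (plus strand) for CXCL8, chr4:73869273-73869392 (plus) for CXCL1, chr4:74099196-74099315 (minus) for CXCL2, chr4:74038690-74038809 (minus) for CXCL3, chr4:73998678-73998797 (minus) for CXCL5, chr2:227813722-227813841 (plus) for CCL20 and chr7:22727080-22727199 (plus) for IL6. The kappaB word GGAATTTCC stood in the promoters of all 5 CXCR2-binding chemokines followed here. It began 91 bases before the start in CXCL8, 90 in CXCL5, 78 in CXCL1 and CXCL3 and 77 in CXCL2. Of the 35116 RefSeq promoters of 300 bases (250 before and 50 after the start), 162 held this word (0.461%), and 6.26% held GGNNTTTCC, which contains it. No test was made against these shares. The promoters of CXCL1, CXCL2 and CXCL3 are nearly the same, as given below, so their matches are not separate cases. CXCL1, CXCL2 and CXCL3 each had a further GGNNTTTCC match that began 53 bases before the start. IL6 had its match 72 bases before the start, and CCL20 had one on the opposite strand, 79 bases before the start. Both IL1A promoters in the table lacked GGNNTTTCC and held the AP-1 word TGANTCA (7.71% of all promoters), which CXCL8 also held. CXCL8 and CCL20 had the TATA word TATAAA (11.5% of all promoters) 31 and 29 bases before the start. These matches describe the letters only. Factor binding was not measured here.

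**Figure D1:**
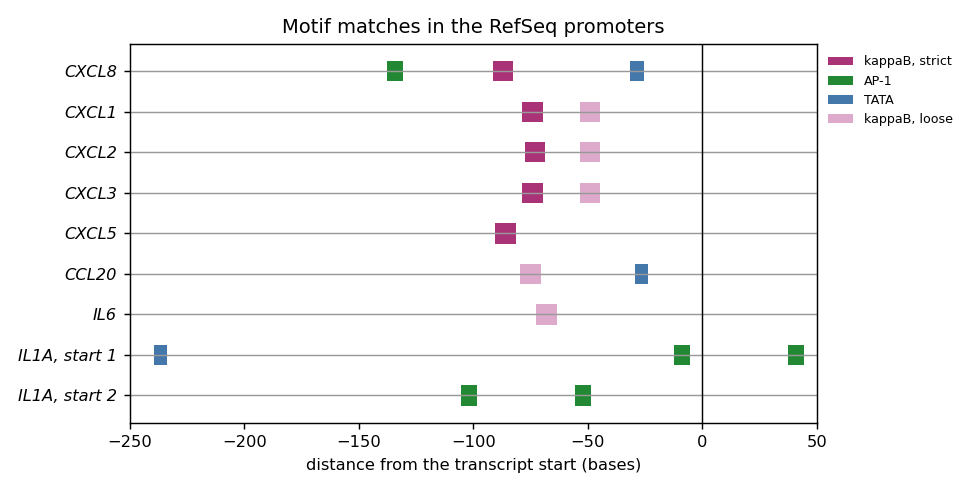
Motif matches in the RefSeq promoters of 8 genes, with the distance from the transcript start in bases on the x axis and 1 line per promoter (IL1A has 2 starts). Dark bars are GGAATTTCC, light bars other GGNNTTTCC matches, green bars TGANTCA and blue bars TATAAA. The dark bars of the 5 CXCR2-binding chemokines begin between 91 and 77 bases before the start.

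Over the 120 bases the promoters of CXCL1, CXCL2 and CXCL3 were nearly the same, with 93.4% identical aligned columns between CXCL1 and CXCL2, 90.8% between CXCL1 and CXCL3 and 88.5% between CXCL2 and CXCL3. The other pairs of the 5 chemokines had 46.1% to 54.0%. The transcripts of the 3 genes were alike too. Of the stretches of 50 bases in their GENCODE transcripts, 13.4% of those of CXCL2 occurred in another gene, compared to 6.01% for CXCL3 and 4.57% for CXCL1, all of them among these 3 genes. Reads from such stretches could be split between the genes or lost in the counting. In this respect alone, the levels of CXCL2 and CXCL3 are less certain than those of CXCL8, CCL2, CCL20 and IL1A. The transcripts of these last genes shared none with other human genes.

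Between 16958533 and 35874381 human reads per tumour were counted on genes, and the floor of 3 counts lay at 0.0836 to 0.177 RPM (reads per 1000000 counted reads), which covers counting error only. The PBS tumours had 26042224 to 35874381 reads (median 32421291), and the A2M* tumours had 16958533 to 33223999 (median 26301439). The epithelial markers EPCAM, CDH1, KRT8, KRT18 and KRT19 were high in every tumour (4427 counts or more each). KLK3, the gene of prostate-specific antigen, had no count and KLK2 at most 1, while TMPRSS2 was read 776 to 2601 times. PC-3 is known to grow without androgens. Leukocyte markers were partly absent. CD2, GZMB and TYROBP had no count in any tumour, and CD163, AIF1, MPO, ELANE and CSF3R had at most 2. Others were read in every tumour, with 21 to 69 counts for PTPRC (CD45), at least 44 for CSF1R, 25 to 81 for ITGAM and 9 to 24 for CD14, and CD68, LYZ and S100A9, which epithelial cells can also express, had 381, 116 and 7046 counts or more. The endothelial marker PECAM1 had 238 to 803 counts. In bulk tissue a smaller number of cells and less RNA per cell cannot be told apart.

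Compared by length-corrected level (RPKM, the RPM per kilobase of exon), the 10 genes covered a wide range. CXCL1 had the highest median over the 11 tumours with 72.1 RPKM (42.1 to 120), followed by CXCL8 with 54.9 (24.5 to 81.0), CXCL5 with 42.0 (28.0 to 59.4) and LIF with 24.9 (20.4 to 33.8). Then came CCL20 with 9.63 (8.21 to 15.2), CXCL3 with 6.23 (4.71 to 8.18), CXCL2 with 6.10 (4.70 to 7.79), IL6 with 3.69 (1.25 to 5.89) and IL1A with 1.65 (0.995 to 2.65). CCL2 was the lowest with 0.359 (0.261 to 2.42). CXCL1 thus ranked 880th of all listed genes, whereas CCL2 ranked 15394th.

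Some genes did not exceed the next one in this order in every tumour. CXCL1 exceeded CXCL8 in 10 of 11 tumours and CXCL8 exceeded CXCL5 in 7, with overlapping ranges in both cases. CXCL3 exceeded CXCL2 in 6 of 11, so these did not differ beyond their spread. Every other gene exceeded the next one in all 11 tumours, and the ranges of LIF, CCL20 and CXCL3 did not overlap with each other. CXCL1, CXCL8, CXCL5 and LIF were above the other 6 genes in each tumour, and the monocyte attractant CCL2 was the lowest of the 10 in all 11 tumours.

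**Figure D2:**
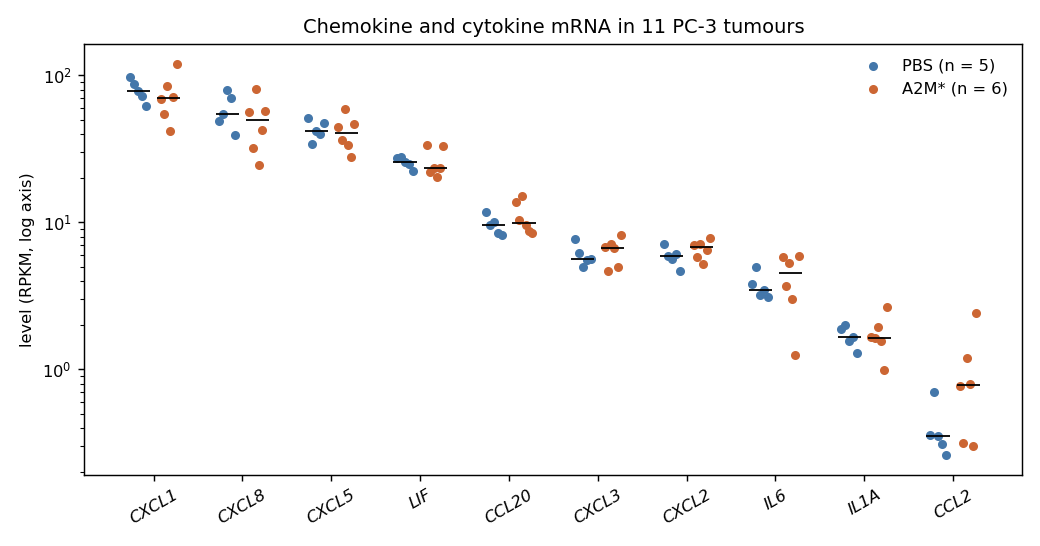
Level of each gene in RPKM on a log axis, with 1 point per tumour (blue PBS, n = 5; orange A2M*, n = 6) and a black line at the median of the group. Both groups overlap for all 10 genes, and CCL2 shows the widest spread, from 0.261 to 2.42 RPKM.

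The human RNA of A2M*-treated tumours was then compared with PBS, using CPM (counts per 1000000, normalized with TMM factors) and edgeR's quasi-likelihood test with Benjamini-Hochberg adjustment over the 16630 genes kept by the filter on low counts. All 10 genes passed that filter. CCL2 did so with only the 5 tumours required, 4 of them from the A2M* group, so that a high A2M* value was part of how it entered the test. None of the 10 genes changed at an adjusted p under 0.01, nor did any of all genes tested (0%), and no other test that was run called any of the 10. At an unadjusted p under 0.05 stood 1 of the 10, CCL2, beside 7.08% of all genes. The log2 fold changes were positive for 6 genes and negative for 4, with a median of 0.04, compared to a median near 0 over all genes tested (-0.0021). For all genes, 1178 had an unadjusted p under 0.05 in this test, and the edgeR exact and likelihood ratio tests and DESeq2 each called 1 gene at an adjusted p under 0.01, which was REP15 (named after its values were seen) and not a member. Groups did not overlap in CPM for 0.710% of all genes tested and for 0 of the 10.

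CCL2, known as MCP1, carried few reads. The 5 PBS tumours had 0.265, 0.548, 0.272, 0.229 and 0.199 CPM, made of 6 to 17 counts. The A2M* tumours had 0.219 CPM at the lowest, a median of 0.573 and 1.81 at the highest, made of 4 to 58 counts. Of the A2M* tumours, 4 were above every PBS tumour, while the other two lay inside the PBS range, and PC3_tumor_112 had the highest value by far. The mean was 0.303 ± 0.140 CPM (SD, n = 5) with PBS and 0.714 ± 0.591 (n = 6) with A2M*, which gave a log2 fold change of 1.31 (SE 0.498, 95% interval 0.24 to 2.38, unadjusted p = 0.0202, adjusted p = 0.643 in edgeR's quasi-likelihood test).

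The CCL2 difference was smaller without PC3_tumor_112. CCL2 fell below the filter when this tumour or PC3_tumor_128, PC3_tumor_130 or PC3_tumor_131 was left out, and without both PC3_tumor_112 and the filter the log2 fold change was 0.76 (SE 0.387, adjusted p = 0.756, edgeR). A two-sided exact permutation test of log2 CPM over the 462 labelings of the tumours gave a difference of 0.83 with p = 0.123, where 0.00216 is the smallest p possible, and 0.52 with p = 0.262 without PC3_tumor_112. PC3_tumor_112 also had the highest summed level of the 7 fibroblast markers COL1A1, COL1A2, COL3A1, DCN, LUM, PDGFRB and PDGFRA, at 927 CPM, against 318 to 695 CPM in the PBS group and 319 to 927 in the A2M* group. COL1A1 made up most of that sum (884 CPM in PC3_tumor_112), while DCN had at most 3 counts and LUM at most 5 in any tumour. The 10 macrophage and monocyte markers summed to 42.2 CPM in PC3_tumor_112 and to 32.8 to 42.9 in the PBS group, and of these TYROBP and CD163 were at 0 in PC3_tumor_112, while CSF1R had 109 counts, ITGAM 56, PTPRC 53 and CD14 20. The 5 luminal prostate markers, mostly TMPRSS2, summed to 90.4 CPM in PC3_tumor_112 and to 49.5 to 56.7 CPM in the PBS group. The part of these RNAs in the CCL2 value was not tested.

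CCL20, the other CC chemokine, was higher and more even. Its values were 9.75, 8.47, 8.75, 7.06 and 7.05 CPM in the PBS tumours. The A2M* tumours had 7.13 CPM at the lowest, a median of 8.29 and 12.5 at the highest. PC3_tumor_128 and PC3_tumor_130 stood above the PBS range, and none stood below it. The log2 fold change was 0.16 (SE 0.161, 95% interval -0.19 to 0.50, adjusted p = 0.899 in edgeR's quasi-likelihood test).

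Among the neutrophil attractants, CXCL8 had the lowest fold change. The PBS tumours had 83.2, 97.8, 141, 120 and 68.5 CPM. The A2M* tumours lay between 40.6 and 135 CPM with a median of 83.2. PC3_tumor_129 and PC3_tumor_131 were below every PBS tumour and none was above, but the other four fell inside the PBS range. The log2 fold change was -0.30 (SE 0.265, 95% interval -0.87 to 0.27, adjusted p = 0.871, edgeR), so that ratios of A2M* to PBS from 0.547 to 1.20 were within the interval.

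CXCL1, the most abundant chemokine, had 115, 109, 97.6, 85.4 and 75.0 CPM with PBS. The A2M* tumours ranged from 48.8 to 144 CPM with a median of 82.8, reaching beyond the PBS range at both ends, with PC3_tumor_112 on top and PC3_tumor_129 and PC3_tumor_131 at the bottom. CXCL5, an epithelial chemokine, had 126.2, 88.6, 108, 98.5 and 121 CPM with PBS and 67.9 to 144 CPM (median 101) with A2M*. The log2 fold changes were -0.15 (95% interval -0.61 to 0.31) for CXCL1 and -0.09 (95% interval -0.44 to 0.26) for CXCL5, and both genes had a larger SD with A2M* than with PBS (32.8 against 16.6 CPM for CXCL1, 27.4 against 15.5 CPM for CXCL5). That difference in SD was not tested.

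The low members of the family lay on the other side of 0. CXCL2 had 8.49, 7.41, 7.03, 7.29 and 5.77 CPM with PBS and 6.06 to 9.41 CPM (median 7.94) with A2M*. CXCL3 had 8.75, 7.51, 5.91, 6.38 and 6.65 CPM with PBS and 5.43 to 9.48 CPM (median 7.64) with A2M*. The groups overlapped for both genes, with log2 fold changes of 0.12 (95% interval -0.15 to 0.39) and 0.06 (95% interval -0.27 to 0.38). The adjusted p of CXCL1, CXCL2, CXCL3 and CXCL5 was between 0.900 and 0.966 (edgeR's quasi-likelihood test). Summed over the 5 CXCR2-binding chemokines, the level was 272 to 346 RPM in the PBS tumours (median 319) and 189 to 403 RPM in the A2M* tumours (median 274).

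The cytokines gave log2 fold changes near 0. IL6 had 4.48, 6.19, 3.95, 4.09 and 3.72 CPM in the PBS tumours and 1.44 to 7.01 CPM (median 5.24) in the A2M* tumours. PC3_tumor_112 and PC3_tumor_128 were above the PBS range and PC3_tumor_131 and PC3_tumor_132 below it. The log2 fold change was 0.13 (SE 0.300, 95% interval -0.51 to 0.78, adjusted p = 0.958 in edgeR's quasi-likelihood test), while the exact permutation test of log2 CPM gave -0.03 (p = 0.942), so that no direction could be given.

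LIF, which holds stem cells of the mouse undifferentiated and is secreted by many carcinomas, was the most evenly expressed of the abundant genes with PBS, with 107, 116, 105, 98.2 and 89.8 CPM. The A2M* tumours had 78.7 to 133 CPM (median 90.9), with PC3_tumor_112 and PC3_tumor_128 above the PBS range and PC3_tumor_129 and PC3_tumor_131 below it. IL1A had 5.44, 6.12, 4.74, 4.81 and 3.84 CPM with PBS and 2.84 to 7.79 CPM (median 4.80) with A2M*, where PC3_tumor_112 was again the highest and PC3_tumor_132 the lowest of all 11. The log2 fold changes were -0.01 (95% interval -0.31 to 0.28) for LIF and 0.02 (95% interval -0.42 to 0.45) for IL1A.

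**Figure D3:**
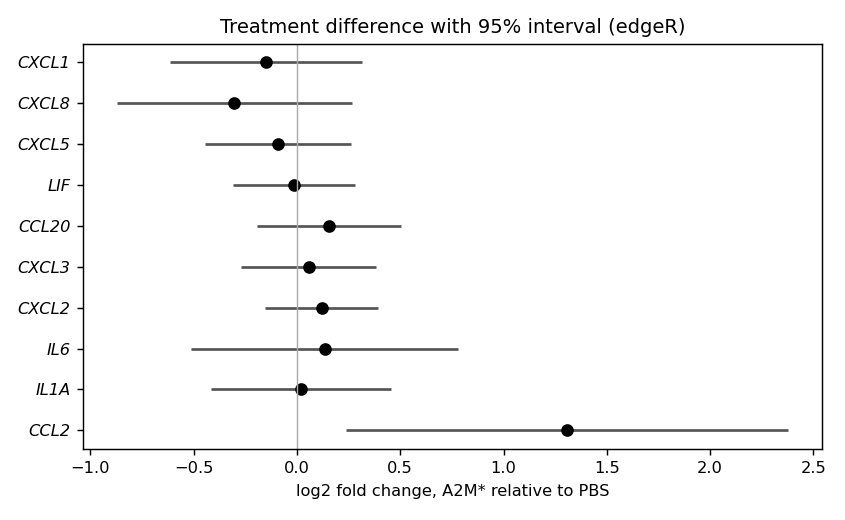
Log2 fold change of each gene, A2M* relative to PBS, as points with the 95% interval of edgeR's quasi-likelihood fit as lines. The intervals of 9 genes include 0, and that of CCL2 runs from 0.24 to 2.38 with an adjusted p of 0.643.

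Tumours of the same group differed among themselves. The biological coefficient of variation, which edgeR estimates within the groups after counting noise is taken off, was 12.4% for the median gene. It was 48.5% for CCL2, 34.4% for IL6, 30.4% for CXCL8, 25.0% for CXCL1 and 22.8% for IL1A. CXCL5 had 19.2%, CCL20 18.6%, CXCL3 17.2%, LIF 16.1% and CXCL2 14.4%. Since low genes vary more, each value was set against the trend of genes with a like level. CXCL8 varied 2.65 times as much as the trend, a ratio above that of 99.6% of genes, followed by CCL2 with 2.35, CXCL1 with 2.18, IL6 with 1.95 and CXCL5 with 1.67. CXCL2 lay below its trend (0.867), but this ratio was still above that of 51.8% of genes.

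**Figure D4:**
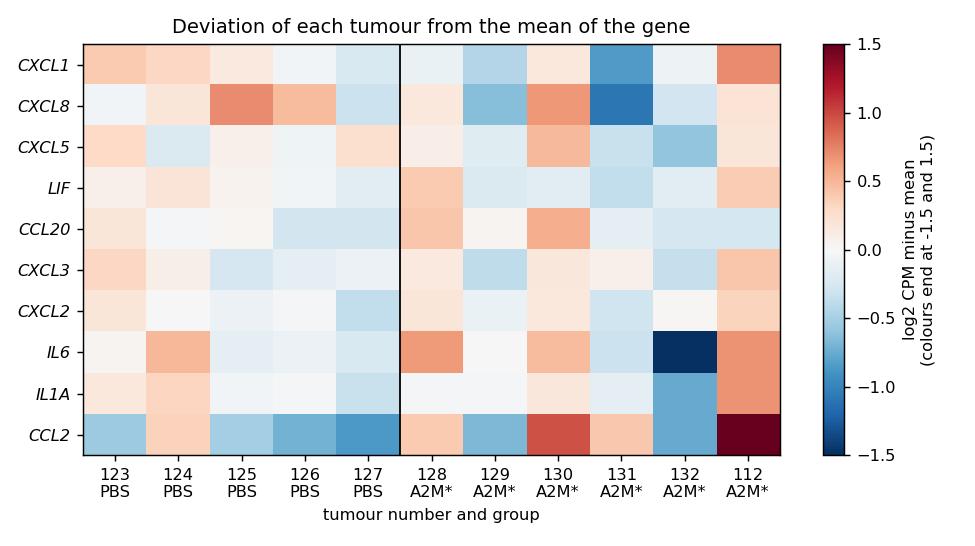
Deviation of each tumour from the mean of the gene in log2 CPM, with genes as lines, tumours as columns and a black line between PBS and A2M*. Red is above and blue below the mean. PC3_tumor_112 is red for most genes, PC3_tumor_131 is blue for CXCL8 and CXCL1, and PC3_tumor_132 is blue for IL6 (1.44 CPM) and IL1A (2.84 CPM).

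The 10 genes tended to be high or low in the same tumours. All of the 45 pairs had a positive Pearson correlation of log2 CPM over the 11 tumours, between 0.10 and 0.88 with a median of 0.53. Over every 97th entry of the pairs of all genes tested, the median was near 0 (-0.0018) and 49.8% were positive. Those pairs were not matched for variation between tumours, which for all 10 genes was above that of the median gene. Within the groups, after removal of the group means, the median of the 45 pairs was 0.54. Without PC3_tumor_112 it was 0.51 and again all 45 were positive. In the PBS tumours taken alone 37 of the 45 were positive, and in the A2M* tumours all 45. The 45 pairs are made of the same 10 genes, so they are not separate observations. The values of a pair come from the same libraries and share their depth. The level of 9 of the 10 genes had a positive r with the log2 total count of the tumour, highest for LIF (r = 0.54, rho = 0.45, 0.48 without the 2 tumours farthest from the median total) and CXCL3 (r = 0.51, rho = 0.29, -0.13 without these tumours). None of the 10 relations passed (adjusted p of 0.414 or more, permutation test), and the part of depth in the shared variation was not tested.

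IL6 and IL1A were the closest pair and the only one past an adjusted p of 0.05, with r = 0.88 (permutation p = 0.00037, adjusted p = 0.0166 over 45 pairs) and rho = 0.93 (permutation p = 0.00019, adjusted p = 0.00855). The correlation was 0.88 within the PBS group and 0.89 within the A2M* group. Without PC3_tumor_132 and PC3_tumor_112, the farthest from the median of IL6, r was 0.67, so that part of the relation rested on these tumours. With a single tumour left out r stayed between 0.75 and 0.94, but the adjusted p rose above 0.05 when PC3_tumor_112, PC3_tumor_124, PC3_tumor_130 or PC3_tumor_132 was left out (0.0981, 0.099, 0.0594 and 0.0705, permutation test).

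The next pairs did not pass over all tumours, with an adjusted p of 0.0830 for CXCL1 with CXCL2 (r = 0.77, rho = 0.75, permutation test). Within the groups CXCL1 and CXCL2 had r = 0.90 (adjusted p = 0.00652, permutation of tumours inside the groups). These genes share the nearly identical promoter shown above and also 4.57% of the stretches of 50 bases of the CXCL1 transcript. The part of the promoter and that of shared reads in this correlation were not tested. CXCL3, whose promoter is also nearly the same, had r = 0.52 with CXCL1 and 0.57 with CXCL2. Within the groups these were 0.55 and 0.57 (adjusted p of 0.275 and 0.266, permutation of tumours inside the groups). The abundant CXCL1 and CXCL8 had r = 0.71. This dropped to 0.24 without PC3_tumor_129 and PC3_tumor_131, the farthest from the median of CXCL8. It was 0.59 without PC3_tumor_131 and PC3_tumor_112, the farthest from the median of CXCL1. CXCL8 and CXCL3 had r = 0.17. Over the 10 pairs of the 5 chemokines with the GGAATTTCC word, r lay between 0.17 and 0.77 with a median of 0.53, compared to 0.52 over the other 35 pairs.

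**Figure D5:**
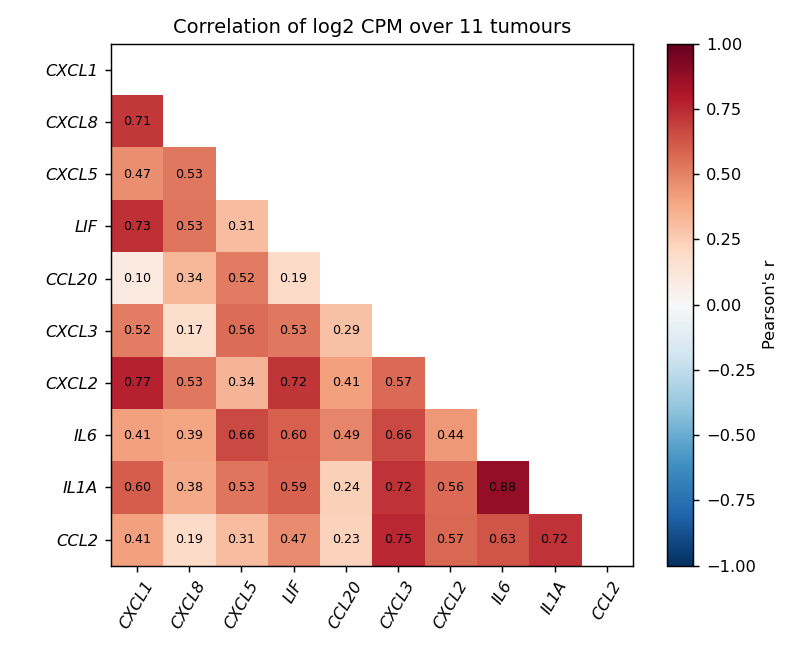
Pearson's r of log2 CPM over the 11 tumours for the 45 pairs, printed in each square and shown by colour from -1 (blue) to 1 (red). Every square is positive, and IL6 with IL1A has the highest value (0.88).

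Among genes outside the list, those named as varying like each member were picked by the highest r among 16629 tested genes over the 11 tumours, so the values are high by choice and carry no test. For IL6 they were MSMO1 (0.96), a sterol oxidase of cholesterol synthesis, and LOC100506178 (0.95). For IL1A they were FDPS (0.95), farnesyl diphosphate synthase, PSMC1 (0.93) and DUSP14 (0.93). IL1A itself ranked 21st for IL6. CXCL8 varied most like TMEM27 (0.94), TVP23C (0.92) and SRGN (0.92), the proteoglycan serglycin, and LIF most like PAPL (0.96), MYL12A (0.90) and TMEM41A (0.89).

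For CCL2 the nearest were PTX3 (0.88), the soluble pattern receptor pentraxin 3, PSME3 (0.88) and C9orf64 (0.87). CXCL1 varied most like IVD (0.90), NF2 (0.90) and CCNA1 (0.89), CXCL2 like GPD1 (0.89), LOC344967 (0.85) and PLD6 (0.85), and CXCL3 like LAP3 (0.93), PCAT19 (0.90) and TCF7 (0.88). CXCL5 went with FAM172BP (0.86) and VIPR2 (0.85), and CCL20 with C11orf48 (0.86), YTHDF2 (0.82) and SERPINB3 (0.81).

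The receptors through which these ligands act were mostly low in the human RNA. CXCR2 had 8 to 26 counts per tumour, and CXCR1 and CCR2 had at most 3, whereas CCR6, the receptor of CCL20, had 43 to 99. IL6ST, the signalling chain for IL6 and LIF, had a median of 10.6 RPKM, LIFR 1.51, IL6R 1.18 and IL1R1 0.567. The proteoglycans SDC4 and SDC1, which hold chemokines at the cell surface, had 167 and 83.5 RPKM. Of 16 receptors and decoys, 13 were tested, none passed the adjusted threshold, and 1 had an unadjusted p under 0.05, a share near the 7.08% of all genes tested. This was IL1RAP, the accessory chain of the IL1A receptor, with 32.8 ± 4.22 CPM in PBS and 24.5 ± 4.02 in A2M* tumours (log2 fold change -0.42, SE 0.118, adjusted p = 0.599, edgeR), where 4 of 6 A2M* tumours lay below every PBS tumour. The median log2 fold change of the list was -0.09.

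Downstream of IL6 and LIF, several STAT genes were low or absent in the human RNA. STAT3 had 55 to 108 counts per tumour (median 0.577 RPKM), STAT5A at most 1 and STAT5B none, while TYK2 (66.3 RPKM) and JAK1 (23.9 RPKM) were abundant. PC-3 is known as a line in which these STAT genes are deleted. The source of the STAT3 reads was not tested, nor was that of the 4 to 58 counts of CCL2. SOCS3, the feedback inhibitor of this pathway, had 6.47 RPKM. Of the 14 genes 12 were tested, and none had an unadjusted p under 0.05. JAK1 (log2 fold change 0.12, SE 0.077) and PIM1 (-0.24, SE 0.162), a kinase induced by STATs, had the smallest p-values (adjusted p of 0.797 and 0.821, edgeR), and the median was -0.02.

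All 27 NF-kappaB subunits, kinases and inhibitors were expressed well enough to be tested. The inhibitor NFKBIA had the highest level (117.5 to 168.9 RPKM), followed by TNIP1 (median 91.3 RPKM), and the subunit RELA had a median of 48.3 RPKM. TNIP1, which restrains NF-kappaB together with TNFAIP3, was the only one of the 27 with an unadjusted p under 0.05, which 7.08% of all genes tested had. It had 312 ± 31.7 CPM in PBS and 261 ± 44.5 in A2M* tumours (log2 fold change -0.26, SE 0.111, adjusted p = 0.681, edgeR). NFKBIA had a log2 fold change of 0.19 (SE 0.092, adjusted p = 0.727). The median of the list was 0.03.

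Other inflammatory targets of NF-kappaB had log2 fold changes of both signs, and none passed the adjusted threshold. Of 19 genes 18 were tested, with SAA2, a serum amyloid, at a log2 fold change of 0.44 (SE 0.146, adjusted p = 0.640) and PTGS2, the inducible cyclooxygenase, at -0.56 (SE 0.254, adjusted p = 0.699), both with an unadjusted p under 0.05 in edgeR's quasi-likelihood test. Such a p was reached by 7.08% of all genes tested. MMP9 (151 RPKM) and TNFAIP2 (106 RPKM) were the most abundant, with log2 fold changes of -0.10 and -0.03, and the median was 0.00466.

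Among 35 other cytokines 23 were tested, and 3 had an unadjusted p under 0.05, which 7.08% of all genes tested had. TNF, a strong inducer of the chemokines above, had 3.65, 3.996, 2.20, 2.60 and 2.90 CPM in the PBS tumours and 4.01 to 9.13 CPM (median 4.38) in the A2M* tumours. The groups did not overlap, which was true for 0.710% of all genes tested, although the lowest A2M* and the highest PBS tumour were nearly level. The log2 fold change was 0.77 (SE 0.233, adjusted p = 0.599, edgeR) and 0.53 without PC3_tumor_112, which had the highest value. IL7 had a log2 fold change of 0.30 (SE 0.112, adjusted p = 0.642) and TNFSF15 of 0.42 (SE 0.170, adjusted p = 0.648). By the reads counted, the most abundant genes of this list were HMGB1 (183 RPKM) and IL18 (65.4 RPKM), and the median log2 fold change was 0.06. MIF, also in the list, had no count in any tumour, and the reason was not tested.

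Of 41 other chemokines only 11 reached the filter, and 13 had no count in any tumour. CXCL6, a further CXCR2 ligand, had 23.6 RPKM, CXCL16 16.6 RPKM and CCL5 7.92 RPKM. The monocyte attractants CCL7, CCL8 and CCL13 had no count at all. CCL25 was the only one of the 11 with an unadjusted p under 0.05, beside 7.08% of all genes tested. It had 4 to 19 counts per tumour (0.333 ± 0.106 CPM in PBS, 0.501 ± 0.0747 in A2M*, log2 fold change 0.55, SE 0.239, adjusted p = 0.693, edgeR). The median of the list was 0.03.

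Of the regulators of cytokine mRNA stability all 15 were tested and none had an unadjusted p under 0.05, with a median of 0.02. ZFP36L2, which destabilizes AU-rich mRNAs, had the smallest p (log2 fold change 0.17, SE 0.094, adjusted p = 0.762), before RC3H2 (-0.29, SE 0.260, adjusted p = 0.876, edgeR), and YBX1 (237 RPKM) and ZFP36L1 (85.2 RPKM) were the most abundant. Of 10 genes for processing and release of IL1A, 9 were tested with none at an unadjusted p under 0.05 and a median of -0.07. S100A13, which carries IL1A out of the cell, had a log2 fold change of -0.10 (SE 0.069, adjusted p = 0.820) and HAX1 of 0.08 (SE 0.056, adjusted p = 0.838, edgeR), while the calpain subunits CAPN2 (265 RPKM) and CAPNS1 (181 RPKM) were abundant.

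The receptor of the injected agent, LRP1, was expressed at 36.5 RPKM (log2 fold change -0.03, SE 0.152, adjusted p = 0.980, edgeR), and its chaperone LRPAP1 at 9.20 RPKM (-0.08, SE 0.079, adjusted p = 0.900). A2M itself had at most 2 counts in any tumour.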

How the data were processed

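RNA of 11 PC-3 xenograft tumours (5 PBS, 6 A2M*) was sequenced as single reads. The authors sorted the reads by species with xenome, aligned those of human origin with TopHat (genome build hg19) and assigned them to RefSeq genes with featureCounts, and they deposited raw counts. They also deposited RPM, which is the count per 1000000 counted reads, and RPKM, which is RPM per kilobase of exon. Strand and multiple-mapping settings are not given in the sources used here. Base calls were converted with bcl2fastq 1.8.4, per the submitters' processing notes.

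Counts were filtered with filterByExpr (at least 0.335 RPM in 5 tumours), normalized with TMM (factors of 0.958 to 1.03) and tested between the groups in edgeR (version 4.0.16, under R 4.3.3) by quasi-likelihood, without covariates and with Benjamini-Hochberg adjustment over 16630 genes. The steps were tested on simulated data. Correlations used log2 CPM with a prior count of 2 and 1e+05 permutations. Alternatives were other normalizations, filters and tests (DESeq2 1.42.0, limma 3.58.1 on RPKM with a pseudocount of 0.1) and each tumour left out in turn, and the exact permutation test per gene and the refit of CCL2 without a filter and without PC3_tumor_112 were added after the data had been seen. The members and gene lists were chosen with earlier results of these data known. Named genes were the 10 members, the list genes with an unadjusted p under 0.05 (up to 4, or the 2 with the smallest p), the 2 most abundant of each list, the 3 most alike genes of each member, and A2M and LRP1. A few genes that this rule names are not reported here. Other genes were named after their values were seen. Promoters came from RefSeq (GRCh38.p14) and gene positions from GENCODE on GRCh37, without conversion between builds. Calculations and figures used Python 3.11.15, scipy 1.17.1 and matplotlib 3.10.9.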

Additional observations from a re-analysis of the deposited data

Results flagged for a closer look

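In 84 groups of values (the named genes in each treatment group), single tumours were searched for that lay far from the others of their group by Dixon's test. It found 7, where chance gives about 1 in 20 groups, or 4.2 here. Among the members, PC3_tumor_124 stood out in the PBS group for CCL2 with 0.548 CPM against 0.199 to 0.272 in the other PBS tumours, and the log2 fold change of CCL2 was 1.63 without it. In the A2M* group PC3_tumor_112 had 9.13 CPM of TNF against 4.01 to 5.34 in the others. PC3_tumor_130 had 4.14 CPM of IL7 against 3.66 to 3.84, a gap just past the limit. PC3_tumor_131 had 307 CPM of SDC4 against 409 to 448, and PC3_tumor_124 had 376 CPM of SDC1 against 249 to 282. RC3H2 was at 23.7 CPM in PC3_tumor_126 against 8.19 to 11.8 in the other PBS tumours. A2M was at 0.0644 CPM in PC3_tumor_124, made of 2 counts, with none in the other PBS tumours. With the others at 0 any count in this tumour would have been found, so this case, among the 7, says nothing.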

How the results depend on the processing

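No alternative called any of the 10 members at an adjusted p under 0.01. The number of members at an unadjusted p under 0.05 was 1 (CCL2) and became 0 with limma-voom, with limma on log2(RPKM + 0.1), and with at least 10 counts in every tumour, where CCL2 was not tested. Leaving out single tumours gave 0 to 1, and it was 0 without PC3_tumor_112, PC3_tumor_128, PC3_tumor_130 or PC3_tumor_131, since CCL2 then fell below the filter. Over all genes the count at an adjusted p under 0.01 was 1 (REP15) with DESeq2, with the edgeR exact test and with the edgeR likelihood ratio test, and 294 genes, none of them a member, reached an unadjusted p of 0.01 by the edgeR exact test and DESeq2 alike. The correlated pairs numbered 2 within the groups and 0 to 2 with a tumour left out. By mean instead of median level 2 members changed places. Directions near 0 turned: IL6 (-0.030) and IL1A (-0.035) in the exact permutation test, IL1A (-0.010) with limma-voom, LIF (0.028 by library size only, 0.0025 with limma on RPKM) and LRP1 (0.016 and 0.026 in the same order). With a tumour left out CXCL3 ranged from -0.030 to 0.15, CXCL5 from -0.21 to 0.000623, IL1A from -0.15 to 0.14, LIF from -0.10 to 0.053, LRP1 from -0.11 to 0.065 and RC3H2 from -0.41 to 0.046, the last turning without PC3_tumor_126. The median log2 fold change of the members lay between -0.10 and 0.13 with a tumour left out. The causes were not tested. No paired analysis was possible because the groups share no tumour numbers. Depth limited CCL2 most, with 4 to 58 counts per tumour.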
